A study of Mus musculus with 6 samples.

Results

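Metallothioneins and zinc exporters are the main proteins that keep free zinc low in brain cells, and 9 of their genes were followed here: Mt1, Mt2, Mt3, Slc30a1, Slc30a3, Slc30a4, Slc30a5, Slc30a9 and Slc30a10. The genes were taken by symbol from a table of 24459 genes, and their 31 isoforms from a table of 75457 isoforms. One gene was selected on measured values: Slc30a9 was included because its isoform Slc30a9-204 was lower with TEPP-46 in these libraries. Its values, and those of its isoforms, are therefore given as a description without a test. All libraries came from perihematomal brain tissue, the brain next to the clot, taken on day 5 after an experimental intracerebral haemorrhage. One group of 3 libraries came from mice given TEPP-46, a small molecule that activates the pyruvate kinase form PKM2, on 5 consecutive days after the bleed. The other group of 3 libraries came from mice with the same bleed that received vehicle over the same days. The labels write WT in the field for cell type, name no strain, age or mutant allele, and do not say that the libraries of a group came from separate animals. The p-values then measure the spread between these libraries only. All the mice had a haemorrhage, so the comparison is between treatments after a bleed, with no uninjured brain beside it.

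Metallothioneins are small cysteine-rich proteins that bind zinc and copper in the cytosol. MT1 and MT2 are made mainly by astrocytes in brain and are switched on by zinc through the metal-sensing factor MTF1, and also by glucocorticoids, cytokines and oxidative stress. MT3, first described as a growth inhibitory factor, is largely a brain protein and is less readily induced by metals. The SLC30 (ZnT) family moves zinc out of the cytosol, either across the plasma membrane or into organelles and vesicles. The zinc stored in synaptic vesicles of many glutamatergic neurons is loaded there by ZnT3, the product of Slc30a3.

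Poly(A)-tailed RNA was read as full-length cDNA on a nanopore platform, and each library held between 5286426 and 6025064 gene counts. Levels are given as CPM, the count scaled by the library's summed gene counts. Libraries are named by the column that holds them, T1, T2 and T3 for TEPP-46 and C1, C2 and C4 for vehicle, and these numbers carry no order. Markers of brain tissue were present: the 8 general neuron markers were all tested and summed to between 3394 and 4532 CPM in TEPP-46 libraries and between 3105 and 4051 CPM in vehicle libraries. These markers do not tell where in the brain the tissue was taken. Sums of the 10 striatal projection neuron markers ran from 687 CPM in C1 to 1879 CPM in C2. Those of the 5 red blood cell markers ran from 319 CPM in C4 to 1053 CPM in C2. Both C2 and C4 stood apart. C2 had the highest sum of the 11 microglia markers, 2720 CPM against 699 to 1850 CPM in the other 5 libraries. C4 had the lowest sum of the 8 oligodendrocyte markers, 5370 CPM against 13193 to 15374 CPM. The 10 choroid plexus and ependyma markers summed to 232 CPM in C2 and 187 CPM in C4, against 2277 to 5008 CPM in the other libraries. Ttr and Enpp2 gave most of these sums. In C4 every marker of the list was lower than in T1, T2, T3 and C1. In C2 this did not hold for Foxj1 (14.2 CPM) and Tmem212 (4.74 CPM), which lay inside the range of those libraries. It held for the rest of the list. In bulk tissue, fewer cells of a type and less RNA per cell cannot be told apart.

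None of the 8 genes open to a test was called between TEPP-46 and vehicle (edgeR's quasi-likelihood F test, Benjamini-Hochberg adjusted p under 0.05). The same test called 0% of all 14441 tested genes. All 9 genes passed the filter on low counts. The log2 fold change (TEPP-46 over vehicle) was above 0 for all 3 metallothioneins, with a median of 0.15, and below 0 for the 5 SLC30 genes other than Slc30a9, with a median of -0.23. Over all tested genes the median was 0.01, with 7376 above 0 and 7065 below. These directions hold for the 9 chosen genes only. Outside them, the tested SLC30 genes Slc30a7 and Slc30a6 stood at 0.14 and -0.08. None of the 8 genes had all 3 TEPP-46 values on one side of the 3 vehicle values; among all tested genes 11.4% had groups apart in this way, 5.76% with TEPP-46 lower and 5.67% with TEPP-46 higher. At an unadjusted p under 0.05 there was likewise none of the 8, beside 5.93% of all tested genes, 4.05% of them lower. The groups were apart for Slc30a9, which was included for a lower value in this contrast, so nothing is read from that. T3 was the highest library for each of the 3 metallothioneins, and C4 was the highest for each of the 6 SLC30 genes followed here. Outside these, Slc30a6 was highest in T1 and Slc30a7 in C2.

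**Figure D1:**
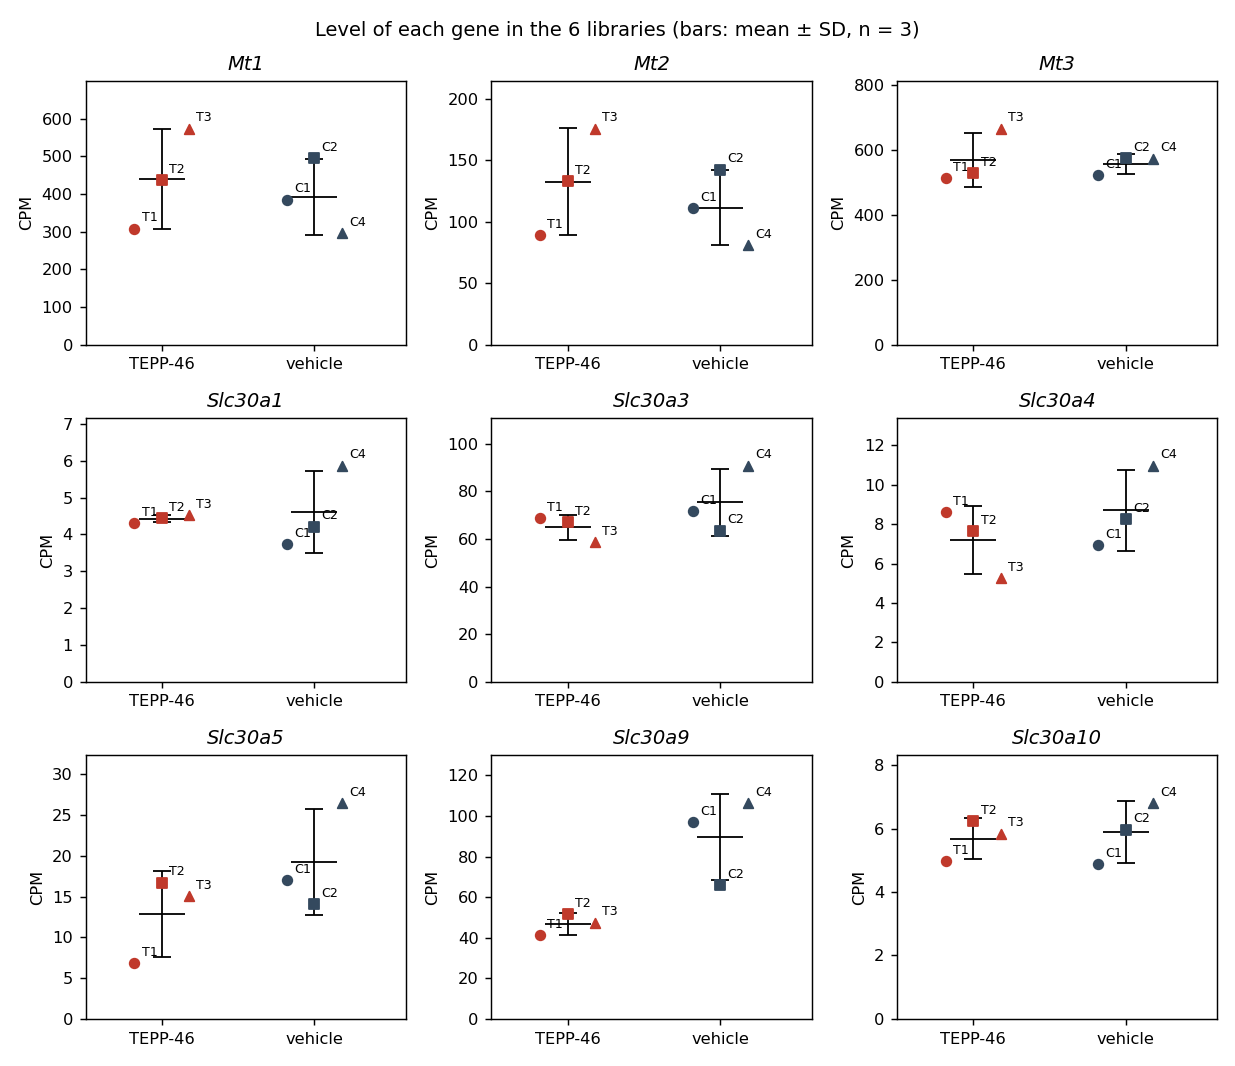
CPM of each of the 9 genes in the TEPP-46 libraries (red, left) and the vehicle libraries (dark, right), 1 point per library, with the mean and SD as black bars (n = 3 each) and each axis starting at 0. The groups overlapped for every gene except Slc30a9, whose TEPP-46 libraries lay between 41.2 and 51.8 CPM and whose vehicle libraries lay between 65.8 and 106 CPM.

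The metallothionein genes lie in a row on chromosome 8 of GRCm38, on the plus strand: Mt3 (94152607 to 94154146), then Mt2 (94172664 to 94173568) after a gap of 18517 bases, then Mt1 (94179082 to 94180327) after a further 5513 bases. Their promoters are shown because Mt1 and Mt2 varied together across libraries and Mt3 is their neighbour in the cluster. The windows come from RefSeq on GRCm38.p6 and run from 250 bases before to 50 bases after the annotated start. Capitals mark matches to TGCACNC or TGCGCNC on either strand, the core of the metal response element that MTF1 recognises.
Mt1, chr8:94178839-94179138, plus strand: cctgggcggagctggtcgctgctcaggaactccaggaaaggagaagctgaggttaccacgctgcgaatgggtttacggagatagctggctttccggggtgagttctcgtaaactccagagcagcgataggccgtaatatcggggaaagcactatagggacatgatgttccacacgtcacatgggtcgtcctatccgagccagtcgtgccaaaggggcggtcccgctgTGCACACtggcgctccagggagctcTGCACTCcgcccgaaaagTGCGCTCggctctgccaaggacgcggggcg
Mt2, chr8:94172368-94172667, plus strand: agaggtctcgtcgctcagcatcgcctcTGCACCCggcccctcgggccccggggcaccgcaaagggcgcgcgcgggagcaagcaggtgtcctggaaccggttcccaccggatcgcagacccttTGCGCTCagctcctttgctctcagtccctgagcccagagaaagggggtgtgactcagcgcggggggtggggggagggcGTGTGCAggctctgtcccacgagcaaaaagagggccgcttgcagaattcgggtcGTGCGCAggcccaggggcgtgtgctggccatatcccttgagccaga
Mt3, chr8:94152357-94152656, plus strand: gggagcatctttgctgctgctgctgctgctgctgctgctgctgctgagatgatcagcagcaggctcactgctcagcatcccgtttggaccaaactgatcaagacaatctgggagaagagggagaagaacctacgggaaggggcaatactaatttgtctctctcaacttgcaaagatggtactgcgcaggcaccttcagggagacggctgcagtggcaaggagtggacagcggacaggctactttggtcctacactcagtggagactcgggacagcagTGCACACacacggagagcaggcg
The Mt2 window held 4 matches, a number reached by 0.517% of the 32851 promoter windows in the table. The Mt1 window held 3, reached by 1.97% of windows, and the Mt3 window held 1, reached by 25.7%. GC content was 67.7% in the Mt2 window, 60.7% in Mt1 and 56.0% in Mt3, against a median of 52.7% over all windows. The windows compared were not matched for GC content. These matches describe the letters and are not measured binding sites.

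Mt1 had 308, 437 and 574 CPM in T1, T2 and T3, against 385, 495 and 295 CPM in C1, C2 and C4. Both groups spanned a similar range and overlapped widely. The mean was 440 ± 133 CPM with TEPP-46 and 391.9 ± 100 CPM with vehicle (SD, n = 3 each), and the log2 fold change was 0.15 (SE 0.25; edgeR adjusted p = 0.997). The log2 fold change was -0.08 without T3 and -0.02 without C4, and 0.35 without T1 and 0.37 without C2.

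Mt2, whose protein shares the metal-binding role of MT1, had 89.1, 133 and 176 CPM in T1, T2 and T3, against 111, 142 and 81.2 CPM in C1, C2 and C4. T3 was again the highest library and C4 the lowest. The mean was 133 ± 43.3 CPM with TEPP-46 and 111 ± 30.6 CPM with vehicle (SD, n = 3 each), and the log2 fold change was 0.24 (SE 0.27; edgeR adjusted p = 0.985). The log2 fold change was -0.01 without T3 and 0.05 without C4, and 0.46 both without T1 and without C2.

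The order of the libraries was the same for Mt1 and Mt2: T3, C2, T2, C1, T1 and C4, from high to low, so that the treatments alternated along it. The highest library had 1.94 times the CPM of the lowest for Mt1 and 2.17 times for Mt2. Across the 6 libraries, log2 CPM of Mt1 and Mt2 gave Pearson's r = 0.995 (exact permutation p = 0.00139; 0.00833 after Benjamini-Hochberg adjustment over 6 pairs) and Spearman's rho = 1.0 (exact permutation p = 0.00278; adjusted 0.0167). Without C4 and T3, the libraries farthest from the median, r was 0.992. The 2 coding sequences have 183 bases each and are identical at 79.2% of them, and the sources used here do not say how reads that match both genes were handled.

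The share of Mt2 in the summed counts of Mt1 and Mt2 was nearly constant. It was 22.4%, 23.3% and 23.5% in T1, T2 and T3, against 22.4%, 22.3% and 21.5% in C1, C2 and C4. The mean share was 23.1% ± 0.562 with TEPP-46 and 22.1% ± 0.462 with vehicle (SD, n = 3 each). Each TEPP-46 value lay above each vehicle value, with T1 and C1 nearest to each other and inside counting error: the exact binomial 95% interval was 20.8% to 24.2% in T1 and 20.8% to 24.0% in C1. This difference was not tested between groups.

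Mt3 had 513, 526 and 665 CPM in T1, T2 and T3, against 521, 574 and 572 CPM in C1, C2 and C4. Apart from T3, the libraries lay close together and the groups overlapped. The mean was 568 ± 83.9 CPM with TEPP-46 and 556 ± 30.04 CPM with vehicle (SD, n = 3 each), and the log2 fold change was 0.02 (SE 0.13; edgeR adjusted p = 0.998). It turned to -0.11 without T3 and to -0.03 without C1. The correlation of Mt3 with its neighbours did not pass: r was 0.638 with Mt1 (exact permutation p = 0.165; adjusted 0.248) and 0.607 with Mt2 (exact permutation p = 0.208; adjusted 0.25). Spearman's rho was 0.657 for both pairs (exact permutation p = 0.175; adjusted 0.21). Without C4 and T3, r was 0.863 with Mt1 and 0.812 with Mt2.

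Mt2 and the astrocyte gene Gfap varied together across libraries. The 12 reactive astrocyte markers, of which 10 were tested and none was at 0 in every library, summed to 278, 510 and 708 CPM in T1, T2 and T3, against 294, 881 and 130 CPM in C1, C2 and C4. Gfap, the intermediate filament protein of astrocytes and one of these markers, had 158, 247 and 348 CPM in T1, T2 and T3, against 175, 417 and 59.4 CPM in C1, C2 and C4. C2 and T3 were the top libraries and C4 the lowest for that sum and for Gfap, as for Mt2. Mt2 and Gfap gave r = 0.892 (exact permutation p = 0.0125; adjusted 0.0375) and rho = 0.943 (exact permutation p = 0.0167; adjusted 0.0333), and r was 0.894 without C4 and T3. The 11 microglia markers, with none at 0 in every library, summed to 1065, 1629 and 1850 CPM in T1, T2 and T3, against 1090, 2720 and 699 CPM in C1, C2 and C4. In CPM these sums ranked the libraries exactly as Gfap did, so the order of Mt2 was as close to theirs as to that of Gfap. The relation of the microglia markers to Mt2 was not tested. The sum of the 12 general astrocyte markers spread less, from 4607 to 5078 CPM with TEPP-46 and from 4291 to 4454 CPM with vehicle. Each TEPP-46 sum lay above each vehicle sum, and this was not tested. Of these markers, 11 had a log2 fold change above 0 and 1 below, and 0 were called. Aldoc (1380 to 2018 CPM) and Slc1a2 (1405 to 1968 CPM) were the largest parts of the sum. Aqp4 ranged from 17.6 CPM in C4 to 57.9 CPM in C2, and Gja1 from 100.1 CPM in C4 to 186 CPM in C2. S100b and Slc1a3 were also lowest in C4 and highest in C2, as Gfap was. The other markers of the list differed from this in the highest or lowest library, and Aldoc was highest in C4 and lowest in C2. The part of these cell types in the levels of Mt1 and Mt2 was not tested.

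**Figure D2:**
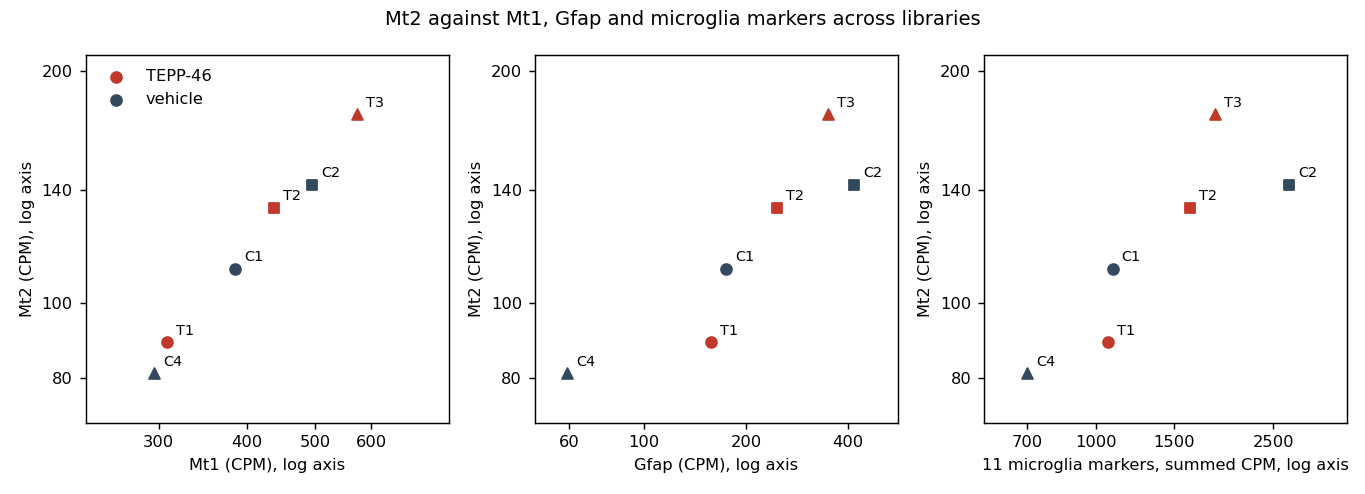
Mt2 (CPM) against Mt1 (CPM), Gfap (CPM) and the summed CPM of 11 microglia markers, all axes logarithmic, with 1 point per library (TEPP-46 red, vehicle dark). Points of both treatments share the same line for Mt1, from C4 at 81.2 CPM of Mt2 to T3 at 176 CPM, and the order is looser for Gfap and the microglia markers, where C2 lies farthest to the right.

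Among tested genes with a mean of 20 CPM or more, Tspan4 (r = 0.987), the unnamed locus ONT.13630 (0.985), Sf3b4 (0.984), Rpl21 (0.984) and Rps27l (0.983) followed the sum of Mt1 and Mt2 most closely over the 6 libraries. Mt3 was followed most closely by H2-DMa (r = 0.978), Rpl9-ps6 (0.968), Mtpap (0.965), Rpl9 (0.957) and Nutf2-ps1 (0.953). With only 6 libraries, such values describe these libraries only.

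No difference in the proportions of metallothionein isoforms was detected. Mt1-201, the spliced 3-exon transcript, took 84.4%, 78.5% and 79.7% of Mt1 counts in T1, T2 and T3, against 79.6%, 81.8% and 82.5% in C1, C2 and C4. Its mean share was 80.9% ± 3.15 with TEPP-46 and 81.3% ± 1.54 with vehicle (n = 3 each, SD; exact permutation test, two-sided p = 0.9, adjusted 0.9 over 7 genes). Here 3 against 3 libraries cannot give a p below 0.1. Mt2-201 took 77.5% ± 3.09 with TEPP-46 and 77.9% ± 1.13 with vehicle of Mt2 counts (exact permutation p = 0.9, adjusted 0.9). Mt3-201 took 85.2%, 85.1% and 84.6% of Mt3 counts in T1, T2 and T3, against 85.4%, 85.5% and 84.6% in C1, C2 and C4 (exact permutation p = 0.5, adjusted 0.875).

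The remaining counts of the cluster belonged to Mt1-202 (21.4 ± 9.17 CPM with TEPP-46, 18.3 ± 4.78 CPM with vehicle), Mt1-203 (22.1 ± 8.94 and 19.2 ± 5.14 CPM), Mt2-202 (15.1 ± 5.91 and 12.1 ± 2.19 CPM), Mt3-202 (10.1 ± 1.72 and 10.95 ± 1.71 CPM) and Mt3-203 (5.47 ± 1.14 and 4.94 ± 0.816 CPM; SD, n = 3 each). An assembled isoform without a reference identifier stood beside each gene: ONT.11949.2 for Mt1, ONT.11948.2 for Mt2 and ONT.11947.3 for Mt3. The last of these was the most abundant, with 69.9 ± 11.98 CPM with TEPP-46 and 66.6 ± 4.74 CPM with vehicle. Mt1-202 had 68, 133 and 155 counts in T1, T2 and T3, against 107, 125 and 68 in C1, C2 and C4. Mt1-203 had nearly equal numbers, 73, 139 and 156 against 111, 133 and 71. Counts of isoforms of 1 gene this close to each other cannot be read as independent measurements.

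Slc30a1 encodes ZnT1, the main exporter of zinc across the plasma membrane and itself a target of MTF1. It lies on chromosome 1 (191906767 to 191913247, plus strand). It had 4.32, 4.45 and 4.52 CPM in T1, T2 and T3, against 3.75, 4.21 and 5.86 CPM in C1, C2 and C4. The TEPP-46 values lay inside the vehicle range. These levels rest on 20 to 31 counts per library. Its log2 fold change was -0.07 (SE 0.30; edgeR adjusted p = 0.997), and it was 0.14 without C4. Its promoter window held 2 matches to the metal response element core, a number reached by 7.11% of all windows. Slc30a1 did not follow Mt2 across libraries (r = -0.388, exact permutation p = 0.490, adjusted 0.490; rho = -0.143, exact permutation p = 0.803, adjusted 0.803). Without C4 and T3, r was 0.259. Slc30a1-201 took 94.7% ± 2.09 of its counts with TEPP-46 and 93.4% ± 1.67 with vehicle (SD, n = 3 each; exact permutation p = 0.5, adjusted 0.875).

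Slc30a10, a second plasma membrane exporter of the family that is known above all for moving manganese, lies on chromosome 1 (185454848 to 185468762, plus strand). It had 4.98, 6.23 and 5.84 CPM in T1, T2 and T3, against 4.87, 5.96 and 6.81 CPM in C1, C2 and C4. Its groups overlapped. Its log2 fold change was -0.06 (SE 0.27; edgeR adjusted p = 0.997), with 0.03 without T1 and 0.05 without C4. A single isoform, Slc30a10-201, held all of its counts.

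Slc30a3 encodes ZnT3, the transporter of synaptic vesicle zinc, on chromosome 5 (31086106 to 31108237, minus strand). It had 68.7, 67.1 and 58.8 CPM in T1, T2 and T3, against 71.7, 63.5 and 90.8 CPM in C1, C2 and C4. C4 was high and T3 low, and C2 lay among the TEPP-46 libraries. The mean was 64.9 ± 5.31 CPM with TEPP-46 and 75.3 ± 14.0 CPM with vehicle (SD, n = 3 each), and the log2 fold change was -0.23 (SE 0.16; edgeR adjusted p = 0.965). Without C4 the log2 fold change was -0.07, and without C2 it was -0.33.

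Slc17a7, the vesicular glutamate transporter of cortical excitatory neurons, had 350, 347 and 204 CPM in T1, T2 and T3, against 379, 223 and 382 CPM in C1, C2 and C4. In CPM it ranked the libraries as Slc30a3 did. The correlations used TMM-scaled log2 CPM, in which T1 and T2 change places for Slc17a7 (rho = 0.943, exact permutation p = 0.0167, adjusted 0.0333). On the same values, Pearson's r of 0.744 did not pass (exact permutation p = 0.0542, adjusted 0.108). Without C4 and T3, r was 0.890. The 10 cortical excitatory neuron markers, all tested, summed to 3510, 3132 and 2966 CPM in T1, T2 and T3, against 3653, 3126 and 4436 CPM in C1, C2 and C4, so C4 was again the highest. The part of that neuron content in the level of Slc30a3 was not tested. Genes that followed Slc30a3 closely included Nudt3 (r = 0.988), Ctxn1 (0.986), Pafah1b1 (0.985) and Sap18 (0.984).

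Slc30a3 was counted mainly as 2 isoforms with different start sites. Slc30a3-201 had 331, 285 and 253 counts in T1, T2 and T3, against 330, 305 and 383 in C1, C2 and C4. Its log2 fold change was -0.32 (SE 0.15; edgeR adjusted p = 0.864), and it was -0.20 without C4. Slc30a3-206, whose start lies upstream, had 80, 90 and 58 counts in T1, T2 and T3, against 52, 54 and 92 in C1, C2 and C4, with a log2 fold change of 0.11 (SE 0.26; edgeR adjusted p = 0.999). Of the counts of both, Slc30a3-206 took 20.7% ± 2.88 with TEPP-46 and 16.0% ± 2.997 with vehicle (SD, n = 3 each), and the groups overlapped. Slc30a3-201 took 78.9% ± 2.90 of all Slc30a3 counts with TEPP-46 and 83.4% ± 3.27 with vehicle (exact permutation p = 0.3, adjusted 0.875). The upstream window held 1 match to the metal response element core and the downstream window held 0.

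Slc30a4 encodes ZnT4, a transporter of endosomes and lysosomes whose loss in the lethal milk mouse leaves milk poor in zinc. It lies on chromosome 2 (122681233 to 122702663, minus strand). It had 8.63, 7.65 and 5.28 CPM in T1, T2 and T3, against 6.93, 8.24 and 10.97 CPM in C1, C2 and C4. The mean was 7.19 ± 1.72 CPM with TEPP-46 and 8.72 ± 2.06 CPM with vehicle (SD, n = 3 each), and the groups overlapped. TEPP-46 over vehicle, the log2 fold change was -0.29 (SE 0.29; edgeR adjusted p = 0.985), and it was -0.11 without T3, -0.09 without C4 and -0.44 without T1. Slc30a4-201 took 87.0% ± 3.24 of its counts with TEPP-46 and 89.6% ± 6.79 with vehicle (exact permutation p = 0.7, adjusted 0.9).

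Slc30a5 encodes ZnT5, which pairs with ZnT6 to bring zinc into the early secretory pathway, where zinc enzymes are loaded. It lies on chromosome 13 (100802648 to 100833427, minus strand). It had 6.80, 16.7 and 15.1 CPM in T1, T2 and T3, against 17.0, 14.0 and 26.5 CPM in C1, C2 and C4. T1 was low and C4 high, with the other 4 libraries close together. The mean was 12.9 ± 5.31 CPM with TEPP-46 and 19.2 ± 6.50 CPM with vehicle (SD, n = 3 each). The log2 fold change of -0.59 was the farthest from 0 among the tested members (SE 0.36; edgeR adjusted p = 0.936), and it was -0.28 without T1 and -0.29 without C4. Its usual partner Slc30a6 had 19.9, 13.9 and 13.6 CPM in T1, T2 and T3, against 19.3, 11.9 and 18.5 CPM in C1, C2 and C4, a log2 fold change of -0.08 (SE 0.25; edgeR adjusted p = 0.997).

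Within Slc30a5, the full-length coding isoform Slc30a5-201 had 22, 49 and 55 counts in T1, T2 and T3, against 71, 56 and 94 in C1, C2 and C4. The top TEPP-46 library lay just below the lowest vehicle library in counts, but in CPM the groups overlapped. For this isoform the log2 fold change was -0.88 (SE 0.35) with an unadjusted p of 0.0315 and an edgeR adjusted p of 0.798, and it was -0.53 without T1. Its share was 58.2% ± 9.19 with TEPP-46 and 71.7% ± 5.64 with vehicle (SD, n = 3 each; exact permutation p = 0.2, adjusted 0.875). Slc30a5-203, annotated as a target of nonsense-mediated decay, had 13, 28 and 21 counts in T1, T2 and T3, against 15, 19 and 35 in C1, C2 and C4, with a log2 fold change of -0.23 (SE 0.40; edgeR adjusted p = 0.999). Slc30a5-205 stayed below the filter at 1.59 ± 1.247 CPM with TEPP-46 and 1.30 ± 0.678 CPM with vehicle.

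Slc30a9 encodes ZnT9, a zinc transporter of mitochondria that was first described as a nuclear receptor coactivator. It lies on chromosome 5 (67306955 to 67358443, plus strand). It had 41.2, 51.8 and 47.5 CPM in T1, T2 and T3, against 97.0, 65.8 and 106 CPM in C1, C2 and C4. All TEPP-46 values were below all vehicle values, and C2 was the lowest vehicle library. The mean was 46.8 ± 5.33 CPM with TEPP-46 and 89.8 ± 21.3 CPM with vehicle (SD, n = 3 each), and the log2 fold change was -0.95 (SE 0.19). It ranged from -1.13 to -0.81 when any 1 library was left out. The gene was chosen for a lower value in these same libraries, so this range and the SE only describe them. The authors' deposited table, made from the same libraries, lists the gene as down with a log2 fold change of -0.78. It lists the isoform Slc30a9-204 as down with -1.12. File headers name a p-value for genes and an FDR for isoforms, so these calls may rest on unlike measures. For the other 8 genes the authors' deposited table lists no change.

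In counts, the lower level of Slc30a9 lay mostly in Slc30a9-204. The gene was chosen for a lower value of that isoform, so nothing is read from this or from the remaining counts below. Slc30a9-204 had 88, 115 and 126 counts in T1, T2 and T3, against 331, 205 and 330 in C1, C2 and C4, a log2 fold change of -1.47 (SE 0.24). Slc30a9-201 had 86, 93 and 71 counts in T1, T2 and T3, against 118, 95 and 136 in C1, C2 and C4, and its log2 fold change was -0.57 (SE 0.19). Slc30a9-207, annotated as a target of nonsense-mediated decay, had 73, 81 and 50 counts in T1, T2 and T3, against 61, 64 and 76 in C1, C2 and C4, and its log2 fold change was -0.07 (SE 0.21). In CPM the groups were apart for Slc30a9-204 and Slc30a9-201 and overlapped for Slc30a9-207. With Slc30a9-204 left out, the remaining counts of the gene came to 27.2 ± 3.82 CPM with TEPP-46 and 36.3 ± 7.21 CPM with vehicle (SD, n = 3 each), and the groups overlapped.

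Slc30a9-204 has 18 exons and Slc30a9-201 has 17. The exon between them that sets them apart is exon 3 of Slc30a9-204, at chr5:67324674-67324733 on the plus strand of GRCm38, inside the coding part. It has 60 bases, or 20 codons, so it keeps the reading frame. It is absent from Slc30a9-201 and from Slc30a9-207, which has 15 exons and also lacks 2 exons of Slc30a9-201. The exon is shown in capitals between 10 bases of its neighbouring exons, from the reference transcript.
Exon 3 of Slc30a9-204: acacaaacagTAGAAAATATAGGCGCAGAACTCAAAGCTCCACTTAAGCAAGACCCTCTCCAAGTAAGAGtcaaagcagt
Of the counts of Slc30a9-204 and Slc30a9-201, the isoform with this exon took 50.6%, 55.3% and 64.0% in T1, T2 and T3, against 73.7%, 68.3% and 70.8% in C1, C2 and C4. The mean share was 56.6% ± 6.79 with TEPP-46 and 71.0% ± 2.696 with vehicle (SD, n = 3 each), and the groups were apart. The exact binomial 95% interval was 56.8% to 70.7% in T3, the highest TEPP-46 library, and 62.7% to 73.6% in C2, the lowest vehicle library, so these 2 libraries overlap within counting error. Of all Slc30a9 counts, Slc30a9-204 took 41.7% ± 7.49 with TEPP-46 and 59.1% ± 4.63 with vehicle, and Slc30a9-207 took 25.7% ± 5.14 with TEPP-46 and 14.1% ± 2.698 with vehicle (SD, n = 3 each). These shares follow from the isoform that chose the gene and are given without a test.

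**Figure D3:**
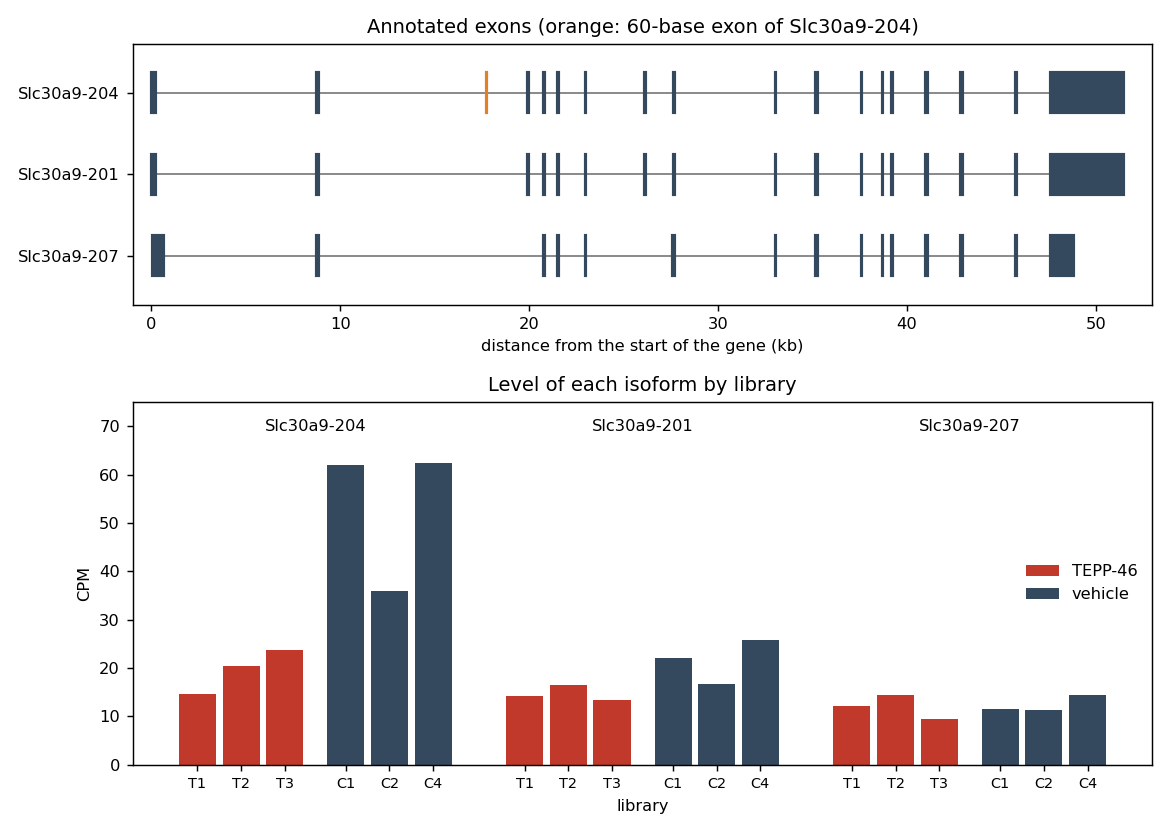
Top, the annotated exons of the 3 main Slc30a9 isoforms against the distance from the start of the gene (kb), with the 60-base exon of Slc30a9-204 in orange. Bottom, the CPM of each isoform in each library (TEPP-46 red, vehicle dark): the groups are apart for Slc30a9-204 and Slc30a9-201 and overlap for Slc30a9-207.

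The other isoforms of Slc30a9 were rare. ONT.9297.4, an isoform without a reference identifier that did not pass the filter, had 0, 2 and 5 counts in T1, T2 and T3, against 7, 10 and 21 in C1, C2 and C4. Slc30a9-205 was listed at 0 in all 6 libraries. The promoter window of Slc30a9 held no match to the metal response element core, which says only that these letters are not in that window.

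**Figure D4:**
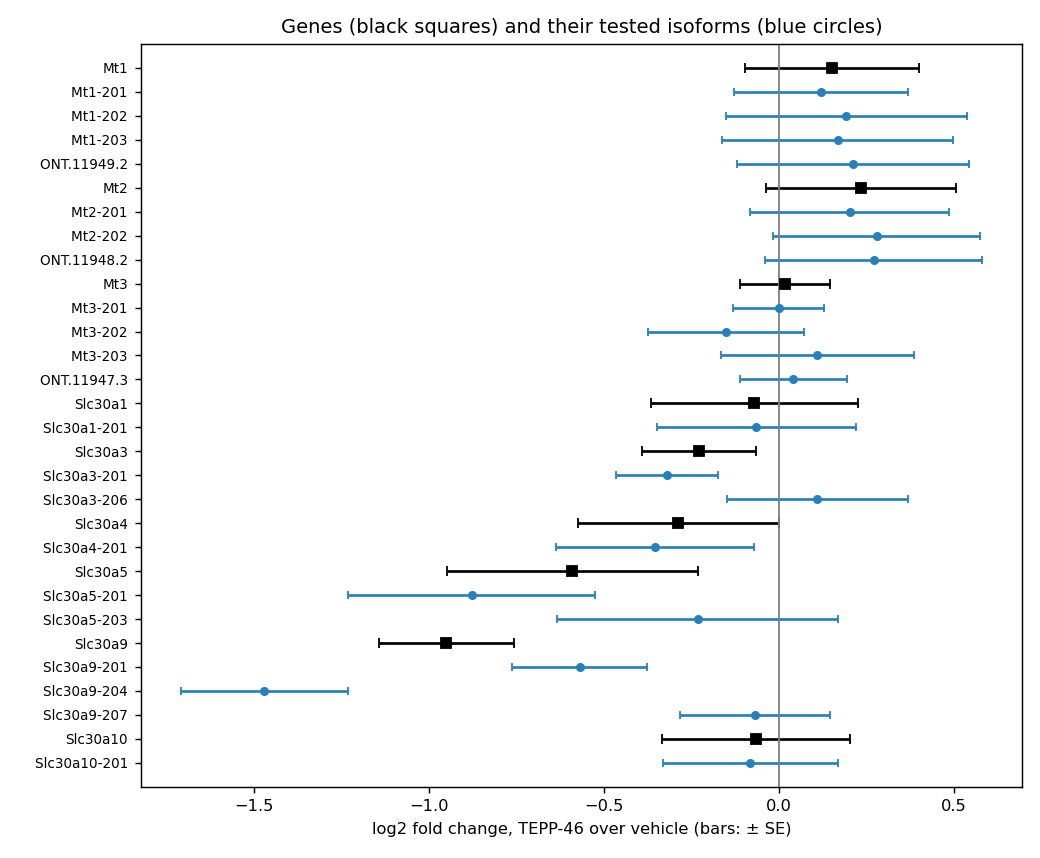
The log2 fold change, TEPP-46 over vehicle, with its SE, of the 9 genes (black squares) and of their 21 tested isoforms (blue circles), each group of isoforms below its gene. Slc30a9-204 lies farthest to the left at -1.47, followed by Slc30a9 at -0.95 and Slc30a5-201 at -0.88, and the metallothionein isoforms lie around 0 with bars that cross it.

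Of the 31 isoforms, 21 passed the filter on low counts. None of the 18 that belong to the other 8 genes was called by edgeR at an adjusted p under 0.05, and 0% of all 33854 tested isoforms were. The groups overlapped for all of these 18, while 10.9% of all tested isoforms had groups apart, 5.18% lower and 5.73% higher. The 2 isoforms with groups apart, Slc30a9-204 and Slc30a9-201, belong to the gene that was included for a lower value in this contrast, and nothing is read from them. At an unadjusted p under 0.05 (5.77% of all tested isoforms, 3.90% lower) the same 18 gave 2 isoforms, Slc30a5-201 and Slc30a3-201, both lower.

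The promoters of the remaining exporters held the metal response element core as follows: Slc30a4 and Slc30a10 had 3 matches each, 2 of those in Slc30a10 overlapping, and Slc30a5 had 1. All 9 genes had an entry in the promoter table, with 10 windows in all. GC content differed between windows, from 53.3% in the upstream window of Slc30a3 to 81.7% in Slc30a4, against a median of 52.7% over all windows.

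Other genes of zinc handling gave no call either. Of the 6 further metallothionein and exporter genes, 3 were tested (Slc30a6, Slc30a7 and Tmem163), 0 passed in either direction, and the median log2 fold change was -0.08. Slc30a7 stood at 0.14 (SE 0.28) and Tmem163, a vesicular zinc transporter, at -0.25 (SE 0.54; edgeR adjusted p = 0.997 for both). Mt4, a metallothionein of stratified epithelia, was listed at 0 in all 6 libraries, and Slc30a8 had 1 count in all. Of the 14 ZIP importers, which carry zinc into the cytosol, 11 were tested and 0 passed in either direction, with a median of -0.01. Slc39a9 had 18.4, 21.3 and 17.5 CPM in T1, T2 and T3, against 14.8, 16.7 and 12.9 CPM in C1, C2 and C4, so the groups were apart, as for 11.4% of all tested genes (log2 fold change 0.36; edgeR adjusted p = 0.908). Slc39a8 stood at 0.49 and Slc39a14 at -0.51 (edgeR adjusted p = 0.945 and 0.967).

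Mtf1, which encodes the zinc sensor that drives Mt1, Mt2 and Slc30a1, had 16.1, 16.2 and 14.9 CPM in T1, T2 and T3, against 12.5, 14.7 and 15.1 CPM in C1, C2 and C4 (log2 fold change 0.14; edgeR adjusted p = 0.993). The groups overlapped. Among the 5 genes of metal-responsive transcription, all tested, 0 passed in either direction and the median was 0.14. Sp1, a general promoter factor, had 4.32, 4.62 and 4.33 CPM in T1, T2 and T3, against 2.81, 3.51 and 1.70 CPM in C1, C2 and C4, with the groups apart, as for 11.4% of all tested genes (log2 fold change 0.70; edgeR adjusted p = 0.882). Of the 10 glucocorticoid-induced genes 9 were tested, 0 passed in either direction and the median was 0.18. Fkbp5, a feedback regulator of the glucocorticoid receptor, stood at 0.45, Sgk1 at 0.38 and Errfi1 at -0.33 (edgeR adjusted p = 0.963, 0.973 and 0.967).

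Copper and manganese genes were set beside the metallothioneins and Slc30a10. Of the 10 copper genes 9 were tested, 0 passed in either direction, and the median was 0.16. The copper pump Atp7a stood at 0.55 and the copper importer Slc31a1 at 0.18 (edgeR adjusted p = 0.976 and 0.989). All 6 genes listed under manganese transport were tested, 0 passed in either direction, and the median was -0.11. A place on this list does not show that a gene's product carries manganese. Atp13a1 had 3.98, 6.94 and 6.22 CPM in T1, T2 and T3, against 9.55, 8.60 and 9.08 CPM in C1, C2 and C4, with the groups apart, as for 11.4% of all tested genes (log2 fold change -0.68; edgeR adjusted p = 0.783).

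The AP-3 adaptor sorts ZnT3 into synaptic vesicles, and its genes were listed with Slc17a7 as 6 genes of synaptic zinc vesicles. All 6 were tested, 0 passed in either direction, and the median was -0.06. Ap3s1 had 17.3, 35.2 and 38.4 CPM in T1, T2 and T3, against 44.2, 46.1 and 52.97 CPM in C1, C2 and C4, with the groups apart (log2 fold change -0.67; edgeR adjusted p = 0.793). Ap3b2, the neuronal beta subunit, had 24.1, 24.4 and 22.8 CPM in T1, T2 and T3, against 29.4, 27.7 and 25.2 CPM in C1, C2 and C4, also apart (log2 fold change -0.22; edgeR adjusted p = 0.965). Groups were apart for 11.4% of all tested genes, and nothing is read from these 2 of 6. Ap3d1 stood at 0.24 (edgeR adjusted p = 0.971).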

How the data were processed

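Long reads from a nanopore cDNA-PCR kit (SQK-PCS109, per the labels' protocols) had been counted per gene and per isoform by the authors. The authors deposited raw counts for 3 TEPP-46 and 3 vehicle libraries, per the file headers. The submitters' processing notes name the build GRCm38 and DESeq 1.10.1. No source used here names the aligner, the counting tool or the use of strand in counting. Column letters tie libraries to treatments, and 12 other per-library columns were not used. The authors' log2 fold changes are used only where their deposited table is named.

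CPM was computed here from the deposited gene counts. The tests over all genes and over all isoforms used edgeR 4.0.16 under R 4.3.3 (filterByExpr, TMM, robust quasi-likelihood fit, group alone), checked on simulated data, with Benjamini-Hochberg adjustment over the whole table. Log2 CPM for correlations was TMM-scaled with 0.5 added. Shares were compared with exact two-sided permutation tests. Binomial intervals are exact (Clopper-Pearson) at 95% and cover counting error only. Annotation was GENCODE M21, and promoters came from RefSeq.

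The members and the 20 gene lists were chosen with earlier results of these data known. The naming rule took all members, isoforms of mean CPM 1 or more, the called genes of a list or else the 3 with the smallest unadjusted p, and the 5 genes closest to a member. Not every gene this rule took is reported here. Gfap and Slc17a7 were named for their planned correlations. Antisense or overlapping genes lie on Mt2, Slc30a1, Slc30a3, Slc30a4 and Slc30a10 in the annotation. Depth was 5651500 ± 359911 counts in TEPP-46 and 5442260 ± 225314 in vehicle libraries (SD, n = 3 each). Alternatives were other scalings, DESeq2 1.42.0, no low-count filter, no robust estimation, other denominators and leaving out each library.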

Additional observations from a re-analysis of the deposited data

How the results depend on the processing

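No paired analysis was possible because columns are tied to treatments by letter alone: the vehicle columns are numbered 1, 2 and 4 and the vehicle titles 1, 2 and 3, so no column number could be taken as that of a title. No alternative called any of the 8 tested genes or their isoforms. The number of genes called was 0 with edgeR (856 at an unadjusted p under 0.05) and 88 with DESeq2, and between 0 and 43 when 1 library was left out, with 43 without C2. The number of isoforms called was 0 with edgeR (1954 at an unadjusted p under 0.05), 158 with DESeq2, 165 without the low-count filter, and between 0 and 178 when 1 library was left out, with 178 without C2. The cause of these differences was not tested. The number of the 9 genes with groups apart was 1, and between 1 and 3 when 1 library was left out. Slc30a9, chosen for a lower value, is in every count. Of the other 8 genes, 2 were apart without C2 (Slc30a3 and Slc30a5, both lower), when 26.4% of all tested genes were, and 1 without C4 (Slc30a1, higher), when 19.1% were, since fewer libraries are apart more often.

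Leaving out 1 library reversed values near 0. The log2 fold change then ranged from -0.082 to 0.366 for Mt1, from -0.0148 to 0.462 for Mt2, from -0.106 to 0.0872 for Mt3, from -0.20 to 0.14 for Slc30a1 and from -0.183 to 0.0532 for Slc30a10. Among isoforms it ranged from -0.12 to 0.34 for Mt1-201, -0.11 to 0.51 for Mt1-202, -0.10 to 0.47 for Mt1-203, -0.0668 to 0.436 for Mt2-201, -0.135 to 0.0730 for Mt3-201, -0.0503 to 0.267 for Mt3-203, -0.12 to 0.13 for ONT.11947.3, -0.0760 to 0.497 for ONT.11949.2, -0.21 to 0.14 for Slc30a1-201, -0.227 to 0.0315 for Slc30a10-201, -0.0539 to 0.450 for Slc30a3-206, -0.52 to 0.22 for Slc30a5-203 and -0.237 to 0.0668 for Slc30a9-207. The difference in share (percentage points) ranged from -2.20 to 0.788 for Mt1-201, -1.97 to 1.12 for Mt2-201, -0.453 to 0.0177 for Mt3-201 and -5.86 to 0.925 for Slc30a4-201. Mt3-201 also turned to 0.0293 with library totals alone, and its share difference to 0.126 with reference isoforms only. The correlation of Mt2 and Slc30a1 turned to 0.259 without the 2 libraries farthest from the median. The cause was not tested. The levels of Slc30a1 rest on 20 to 31 counts per library.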
